A study of Mus musculus with 2 samples.

Results

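The barcodes described here are called cells. They held transcripts of dividing natural killer (NK) or ILC1-like cells of the mouse embryonic thymus and few of granzyme C. They were chosen by transcript counts in a droplet single-cell RNA-seq data set of 6057 barcodes and 22032 genes, in which each count is a unique molecular identifier (UMI), that is, 1 captured RNA molecule. A barcode entered the set with at least 500 detected genes, at most 10% of UMIs from mitochondrial genes and at most 1 UMI of Krt8, Krt18 and Prss16, which mark thymic epithelium. It also needed at least 1000 CPM (counts scaled to 1000000 UMIs per barcode or class) over Xcl1, Ccl5, Nkg7 and Klrd1 together, under 300 CPM of Cd3d, under 3 UMIs of Cd8b1, under 5 UMIs of Gzmc, and at least 3 UMIs of Mki67 and Top2a together. The rule left 452 barcodes of the 5187 that passed the first 3 limits, 8.71% (95% exact binomial interval 7.96 to 9.51).

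The libraries were made from sorted DN1 cells of embryonic thymus of the strain named 5x polychromILC, 1 library labelled E15.5 and 1 labelled E19.5. DN1 is the earliest double-negative stage of the thymus, at which T cell precursors and innate lymphoid cells are sorted together. Mice of this strain carry fluorescent or surface reporters at lineage genes of innate lymphoid cells, so every cell compared here carried the same modified alleles, and no cells without them were analysed here. The deposited matrix joined both libraries, barcodes carry the suffix 1 or 2, and no label ties a suffix to a stage, so the matrix was treated as 1 pooled sample with no test between groups and the stages were not compared. Where 2 values of a class are given for a gene, the first is of suffix 1 and the second of suffix 2. Other values are pooled over both suffixes unless a suffix is named, and every interval below covers counting error only.

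NK cells and ILC1 are innate lymphocytes that kill target cells with granzymes and perforin and secrete interferon gamma and chemokines, without a rearranged antigen receptor. Activating receptors such as NKG2D (Klrk1) and NKp46 (Ncr1) signal through small adaptors that include FcR gamma (Fcer1g), DAP12 (Tyrobp) and DAP10 (Hcst), and the transcription factors T-bet (Tbx21) and Eomes shape the lineage. Dividing cells switch on genes in waves: E2F factors drive DNA replication genes in S phase, and the MuvB complex with B-Myb and FoxM1 drives mitotic genes in G2 and M phase. MuvB binds a short promoter element called the cell cycle homology region (CHR), commonly found near CCAAT boxes bound by NF-Y.

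Top2a and Mki67 are gate genes that part dividing from resting cells. High ratios over resting cells of genes that move with them therefore describe the gate. The promoters of 4 cell cycle genes that were among the 10 with the highest ratio over resting cells are printed. That of Xcl1, a gate gene outside the cell cycle, is printed beside them as a single example. Each runs 5′ to 3′ on the gene's strand, 250 bases before to 50 after the RefSeq start (GRCm38.p6). Capitals mark CCAAT boxes (CCAAT or ATTGG) and CHR elements (TTTGAA with its reverse complement TTCAAA, and the palindrome TTCGAA). Top2a (chr11:99024140-99024439, minus strand) encodes topoisomerase II alpha, Mki67 (chr7:135716330-135716629, minus strand) the Ki-67 coat protein of mitotic chromosomes, Cenpf (chr1:189688037-189688336, minus strand) a kinetochore protein and Hmmr (chr11:40733388-40733687, minus strand) a spindle-associated protein. Xcl1 (chr1:164935473-164935772, minus strand) encodes the chemokine lymphotactin.
Top2a: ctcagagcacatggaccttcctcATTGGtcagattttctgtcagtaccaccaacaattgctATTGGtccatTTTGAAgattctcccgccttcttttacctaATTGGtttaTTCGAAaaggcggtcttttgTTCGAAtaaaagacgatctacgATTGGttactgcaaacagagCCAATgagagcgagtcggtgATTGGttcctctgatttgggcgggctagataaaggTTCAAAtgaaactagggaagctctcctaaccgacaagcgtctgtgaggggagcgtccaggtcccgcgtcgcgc
Mki67: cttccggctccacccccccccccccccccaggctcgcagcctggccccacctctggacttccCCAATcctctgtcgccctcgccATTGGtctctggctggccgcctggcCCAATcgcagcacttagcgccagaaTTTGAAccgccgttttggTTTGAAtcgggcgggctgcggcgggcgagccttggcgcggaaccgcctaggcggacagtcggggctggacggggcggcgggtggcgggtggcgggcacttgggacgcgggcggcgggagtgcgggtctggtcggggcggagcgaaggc
Cenpf: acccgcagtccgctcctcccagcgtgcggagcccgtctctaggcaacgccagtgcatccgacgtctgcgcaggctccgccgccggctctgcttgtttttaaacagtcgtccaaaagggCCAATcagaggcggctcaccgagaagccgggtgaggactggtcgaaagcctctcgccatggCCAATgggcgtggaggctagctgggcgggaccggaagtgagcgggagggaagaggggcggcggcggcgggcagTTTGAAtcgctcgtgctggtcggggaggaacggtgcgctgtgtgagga
Hmmr: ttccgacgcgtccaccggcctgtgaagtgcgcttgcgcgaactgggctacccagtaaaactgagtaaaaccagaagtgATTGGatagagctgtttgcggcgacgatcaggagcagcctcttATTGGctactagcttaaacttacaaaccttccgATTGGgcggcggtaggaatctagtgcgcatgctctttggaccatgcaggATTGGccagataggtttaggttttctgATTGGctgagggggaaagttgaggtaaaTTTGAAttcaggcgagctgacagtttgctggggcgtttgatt
Xcl1: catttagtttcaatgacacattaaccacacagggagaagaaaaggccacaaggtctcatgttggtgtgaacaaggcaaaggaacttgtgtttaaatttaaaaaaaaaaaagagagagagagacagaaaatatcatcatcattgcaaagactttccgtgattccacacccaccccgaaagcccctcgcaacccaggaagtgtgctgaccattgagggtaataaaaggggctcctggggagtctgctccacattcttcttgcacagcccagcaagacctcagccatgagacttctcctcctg

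The Top2a promoter held 6 CCAAT boxes and 4 CHR elements, and that of Mki67 held 3 and 2. The window of Cenpf held 2 CCAAT boxes and 1 CHR element, that of Hmmr 5 and 1, and that of Xcl1 neither. Of the 10 genes with the highest ratio, which include the gate genes Top2a and Mki67, 9 held a CCAAT box, 8 a CHR element and 7 both. The 4 printed are among those 7. Hist1h2ab and Cenpe, of the same 10, held no CHR element, and Knl1 no CCAAT box. Over the whole table, 37.9% of 27025 promoters held a CCAAT box, 19.4% a CHR element and 7.70% both. Of the 50 genes in the G2/M list, 45 matched a promoter, of which 75.6% held a CCAAT box, 73.3% a CHR element and 60% both. The 30 matched genes of the S phase list (of 42) held a CCAAT box in 70%, a CHR element in 16.7% and an E2F site in 36.7% of promoters, against 2.32% with an E2F site over the table. The E2F site was searched as TTTNNCGC on both strands, with C or G at each N. The 26 matched NK receptor genes held a CCAAT box in 19.2% and a CHR element in 34.6%. A motif match is a description of the letters, not a binding site.

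The 452 cells summed to 7160443 UMIs, with 1573 to 51291 and a median of 14698.5 per cell, a median of 3470.5 genes per cell, and 2.75% of UMIs from mitochondrial genes. Suffix 1 held 382 of them, 84.5% (80.8 to 87.7), and suffix 2 the other 70. They made up 20.3% of the 1884 suffix 1 barcodes that passed the limits and 2.12% of the 3303 of suffix 2. Scrublet called 1 of the 382 and 10 of the 70 a doublet. It marked 0.466% of all suffix 1 barcodes and 2.76% of suffix 2, so it may not have worked for suffix 1. Of 25 barcode sequences found under both suffixes, none was among the 452 cells.

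The name was checked against markers that the gate had not used. All 14 further NK and ILC1 markers had UMIs, but so did 13 of the 14 in proliferating ILC2-like cells and all 14 in the other passing barcodes. They summed to 5791 CPM (5754 and 5961 CPM by suffix). The sum was 265 CPM in ILC2-like cells (352 and 232 CPM), which were chosen to be low in the NK genes of the gate. It was 1461 CPM in all other passing barcodes, 5740 CPM in resting low-Gzmc cells and 6991 CPM in high-Gzmc proliferating cells. The sum therefore did not set the cells apart from these other NK/ILC1-like classes. In the low-Gzmc proliferating cells, lists of other lineages were present in part. These cells had a UMI of 11 of 12 ILC2 markers, 13 of 16 T-committed markers and 8 of 10 LTi and ILC3 markers. Among the defining genes of these and other lists, Rag1, Dntt, Cd4, Il5, Il23r, Cd79a, Foxn1 and Col1a1 had no UMI among 7160443, which allows up to 0.419 CPM. Other genes of the same lists had UMIs. All of these genes but Il5 were also at 0 in the smaller high-Gzmc proliferating class, and Il5 was at 0 in resting cells. These zeros therefore do not set the cells apart from the classes most like them. Myeloid markers summed to 4.75 CPM over 12 genes, B lineage markers to 18.7 CPM over 8 and stromal markers to 31.1 CPM over 8. T-committed markers summed to 1316 CPM, against 1344 CPM in all other passing barcodes, of which Cd3g, a CD3 subunit gene also transcribed in NK cells, gave 1059 CPM in the low-Gzmc proliferating cells, while Cd3e gave 6.56 CPM. ILC2 markers summed to 288 CPM, against 542 CPM in the other barcodes, early T progenitor markers to 139 against 571 CPM, and gamma-delta T cell markers to 515 against 581 CPM. LTi and ILC3 markers summed to 707 CPM, against 441 CPM in the other barcodes, and Ltb gave 664 CPM of the 707 CPM. The part of these transcripts in the results was not tested. As for the labelled DN1 stage, Cd44 stood at 69.5 CPM, Il2ra (CD25) at 8.10 CPM and Kit at 13.0 CPM. The tagBFP reporter, which marks Id2 in this strain, had a UMI in all 434 cells deep enough to be thinned to 6699 UMIs, and in 93.1% of ILC2-like cells.

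Transcripts of other lineages lay unevenly over the classes compared. A UMI of Krt8, Krt18, Prss16, Psmb11, Hbb-bt, Cpa3 or Mcpt2, genes of epithelium, red cells and mast cells, was present in 23.6% of the suffix 1 and 20% of the suffix 2 low-Gzmc proliferating cells, but in 64.6% of suffix 1 and 9.63% of suffix 2 resting cells. These 7 genes are called foreign below. The erythroid marker list summed to 38.4 CPM in the low-Gzmc proliferating cells and 330.2 CPM in resting cells, the mast cell list to 23.9 and 233 CPM, and the epithelial list to 29.9 and 44.2 CPM. Their part in the results was not tested, and comparisons with resting cells are therefore given with and without such barcodes, a choice made after seeing these values. Without them, 348 proliferating (292 and 56 by suffix) and 398 resting cells (201 and 197) remained. The main comparisons with other classes, between suffixes and between single cells keep such barcodes among the low-Gzmc proliferating cells. Whether each of them held a dividing NK/ILC1-like cell was not tested.

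Gzmc, whose limit defined the set, was at 0 UMIs in 316 of the 452 cells, at 1 in 67, at 2 in 38, at 3 in 19 and at 4 in 12. Mki67 and Top2a together gave 3 to 4 UMIs in 72 cells, 5 to 9 in 89, 10 to 19 in 124 and 20 or more in 167, with a highest value of 80. The 72 cells just inside that limit had 2070 CPM of Hmgb2, a chromatin protein gene high in G2/M, and 343 CPM of Klrk1, whereas the 318 cells just outside, with 1 to 2 UMIs, had 1324 and 382 CPM. At the Gzmc limit, the 31 cells inside with 3 to 4 UMIs had 1994 CPM of Xcl1 and the 9 outside with 5 to 6 UMIs had 1910 CPM. The 43 cells closest above the NK limit of 1000 CPM had 126 CPM of Xcl1 and 367 CPM of Klrd1, while 115 barcodes at 500 to 1000 CPM had 34.7 and 60.4 CPM. These values describe the limits and are not tests.

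Among all low-Gzmc NK/ILC1-like cells, the proliferating ones were 36.5% (33.8 to 39.3, 452 of 1238 cells). The share was 40.2% (37.1 to 43.4) in suffix 1 and 24.3% (19.47 to 29.7) in suffix 2. Without barcodes holding a transcript of the 7 genes above, the shares were 59.2% (54.7 to 63.6) and 22.1% (17.2 to 27.8). With a limit of 200 CPM for Mki67 and Top2a in place of 3 UMIs, they were 43.4% and 26.7%. The high-Gzmc cells met the 3-UMI limit in 22 of 44 cells of suffix 1 (50%, 34.6 to 65.4) and 70 of 224 of suffix 2 (31.2%, 25.2 to 37.8). The share was higher in suffix 1 in each of these counts.

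How far the cells had moved through the cycle was read from 2 lists of genes, 42 of S phase and 50 of G2/M, after each cell was thinned to 6699 UMIs. Of the 452 cells, 434 were deep enough. They held a median of 86 G2/M UMIs, with 28 and 153 at the tenth and ninetieth percentiles and a range of 6 to 215, and a median of 27 S phase UMIs (11 to 49 at those percentiles). High-Gzmc proliferating cells (n = 92) had medians of 89.5 and 24, and ILC2-like proliferating cells (n = 420) of 88.5 and 25. Resting low-Gzmc cells (n = 634) had medians of 28 and 15, or 11 and 9 in the 317 without a transcript of the 7 genes. The 3 proliferating classes thus overlapped over nearly all of their range. By suffix, the low-Gzmc proliferating cells had G2/M medians of 88.5 and 72, while resting cells had 37 and 8. Resting cells without a transcript of the 7 genes had 15 and 8. Before thinning, the medians of the low-Gzmc proliferating cells were 176 G2/M and 58 S phase UMIs.

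**Figure D1:**
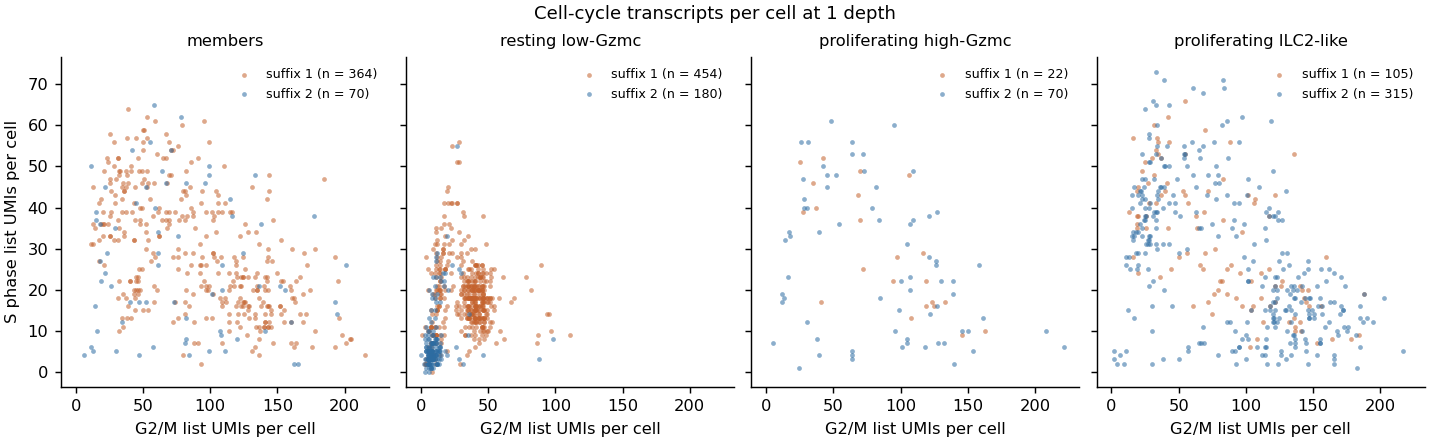
UMIs of the S phase list (vertical axis) against UMIs of the G2/M list (horizontal axis) in single cells thinned to 6699 UMIs each, in 4 panels for the low-Gzmc proliferating cells (members), resting low-Gzmc, high-Gzmc proliferating and ILC2-like proliferating cells, coloured by barcode suffix. The proliferating classes spread over the same area, with G2/M medians of 86, 89.5 and 88.5, and resting cells of suffix 1 form a dense group around their median of 37 G2/M UMIs. That median was 15 in the suffix 1 resting cells without a foreign transcript.

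Against resting low-Gzmc cells, the dividing cells had higher levels of most G2/M genes, while the medians of the other lists lay nearer 0. Because Mki67 and Top2a chose both classes, the size of the cycle difference is a description of the gate. Over 10274 genes with at least 20 UMIs in both classes together, 592 (5.76%) were 2-fold or more higher and 429 (4.18%) 2-fold or more lower in the proliferating cells, with a median log2 ratio of 0.11. Without barcodes holding one of the 7 transcripts, 527 (5.49%) were higher and 342 (3.56%) lower among 9600 genes, with a median of -0.05.

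The G2/M list stood highest. In it, 47 of 50 genes were 2-fold or more higher in the proliferating cells and none 2-fold lower, with a median log2 ratio of 2.0 (1.61 to 2.51). The median was 1.82 within suffix 1 and 3.83 within suffix 2, and 3.37 without the barcodes with foreign transcripts (2.81 and 4.08 by suffix). Top2a gave 620 CPM in suffix 1 and 563 CPM in suffix 2 of the proliferating cells, against 27.2 and 11.9 CPM in resting cells, a pooled log2 ratio of 4.72. Ube2c, the ubiquitin-conjugating enzyme of the anaphase-promoting complex, gave 867 and 358 CPM in proliferating cells, against 341 and 27.1 CPM in resting cells. The 341 CPM of suffix 1 resting cells became 45.1 CPM once barcodes with foreign transcripts were left out, when the proliferating cells had 875 CPM. Whether these foreign transcripts and the G2/M transcripts of suffix 1 resting cells came from the same source was not tested.

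Kinetochore and spindle genes followed the same order. Knl1, a kinetochore scaffold, gave 118 and 117 CPM by suffix in proliferating cells, against 5.34 and 3.33 CPM in resting cells (log2 ratio 4.62). Cenpe, a kinetochore motor, gave 180 and 141 CPM against 13.7 and 6.67 CPM in resting cells (3.88), and Prc1, which bundles microtubules of the central spindle, gave 224 and 169 CPM against 17.4 and 10.5 CPM (3.79). In each of these genes, both suffixes of the proliferating cells lay above both suffixes of the resting cells. Cyclin A2 (Ccna2) gave 244 and 140 CPM in proliferating cells, against 54.8 and 1.43 CPM in resting cells, and cyclin B1 (Ccnb1) 158 and 77.2 CPM against 56.2 and 2.86 CPM. Cdkn2c, which encodes the CDK4 and CDK6 inhibitor p18INK4c, was also higher in proliferating cells, at 43.8 and 51.2 CPM against 11.4 and 9.05 CPM in resting cells (2.07).

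Replication genes differed less. In the S phase list, 18 of 42 genes were 2-fold or more higher and none lower, with a median of 0.90 (0.56 to 1.35), which was 0.73 in suffix 1 and 1.67 in suffix 2. Among genes at a mean of at least 50 CPM, the highest ratio was that of the replication-dependent histone Hist1h2ab, an H2A gene, at 5.30. Hist1h1b, a linker histone, gave 957 and 1107 CPM in proliferating cells, against 40.8 and 22.9 CPM in resting cells (4.78), and Hist1h2ae, another H2A gene, 1113 and 921 CPM against 60.5 and 19.52 CPM (4.45). Rrm2, the small subunit of ribonucleotide reductase, gave 291 and 273 CPM against 91.6 and 7.14 CPM in resting cells (2.07). Of 20 genes of nucleotide synthesis, 1 was 2-fold higher, at a median of 0.28 (0.18 and 0.62 by suffix). Without foreign transcripts, 3 were, all 20 lay above 0 and the median was 0.49 (0.31 and 0.55). The 30 genes of oxidative phosphorylation had a median of -0.09 and none past 2-fold, but medians of opposite sign within suffixes (-0.21 and 0.22). Without foreign transcripts the median was 0.14 (-0.0048 and 0.21 by suffix), and 23 of 30 lay above 0. The 17 genes of glycolysis had a pooled median of -0.15, again with opposite signs within suffixes (-0.28 and 0.32). Without foreign transcripts their pooled median was -0.06, while both suffix medians lay above 0 (0.03 and 0.34). Neither metabolic list therefore had 1 direction.

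**Figure D2:**
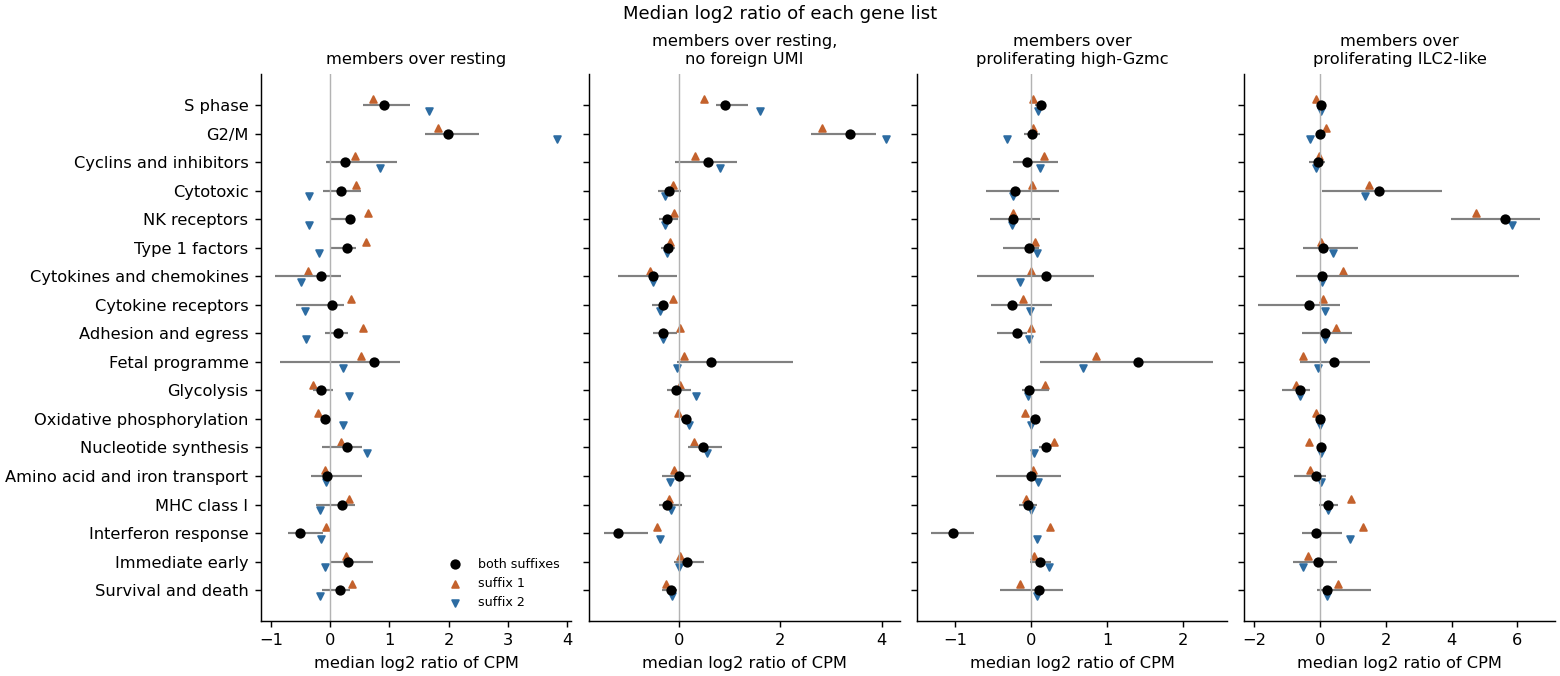
Median log2 ratio of each of 18 gene lists (rows), low-Gzmc proliferating cells over the class named above each panel (resting, resting without barcodes holding a foreign transcript, high-Gzmc proliferating and ILC2-like proliferating), with black points for both suffixes and their 95% order-statistic interval, upward triangles for suffix 1 and downward triangles for suffix 2. The G2/M list lies at 2.0 against resting cells and at 0.01 and 0.00 against the other proliferating classes, and the NK receptor list lies at 5.64 against ILC2-like cells. The ILC2-like class was cut to be low in the NK genes of the gate, which shapes that last value.

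With all barcodes, cytotoxic genes of dividing and resting cells did not differ in 1 direction. None of 13 was past 2-fold, and their median was 0.18 (0.44 in suffix 1, -0.36 in suffix 2). Without foreign transcripts the median was -0.19, with 3 genes above 0 and 10 below, and both suffix medians lay below 0 (-0.11 and -0.27). The gene values that follow are with all barcodes unless stated. Granzyme A (Gzma) gave 3369 and 860 CPM by suffix in proliferating cells, against 2363 and 1178 CPM in resting cells, so it was higher in suffix 1 and lower in suffix 2. Resting cells without foreign transcripts had 2995 and 1313 CPM of Gzma, whereas the proliferating values keep such barcodes. With them left out of both classes, the 13 cytotoxic genes summed to 6101 and 3880 CPM in proliferating cells. The sums in resting cells were then 5271 and 4651 CPM. Granzyme B (Gzmb) gave 86.7 and 85.9 CPM against 52.5 and 77.6 CPM in resting cells (0.55). Ctsw, the protease cathepsin W of killer lymphocytes, gave 762 and 990 CPM against 602 and 1306 CPM in resting cells (0.02). Perforin (Prf1) gave 6.62 and 7.09 CPM against 6.58 and 7.14 CPM in resting cells, and its share of thinned cells with a UMI, 5.07% (8.85% unthinned), was close to the 4.29% of ILC2-like cells (8.22% unthinned), so it was read as background. Median depths before thinning were 14698.5 UMIs in the proliferating low-Gzmc and 19263 in the ILC2-like cells.

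The NK receptor list had none of 21 genes past 2-fold and a median of 0.34, which was 0.64 in suffix 1 and -0.35 in suffix 2. Without foreign transcripts the median was -0.22 (-0.09 and -0.27 by suffix), with 5 genes above 0 and 16 below. In that comparison Klrk1 gave 603 and 655 CPM in proliferating cells, against 573 and 800 CPM in resting cells (-0.15), and Ncr1 156 and 184 CPM against 141 and 213 CPM (-0.12). Cd160, an activating receptor of NK cells and ILC1, gave 935 and 466 CPM against 987 and 592 CPM in resting cells, where the pooled ratio of 0.09 had the opposite sign to both suffixes (-0.08 and -0.35). The adaptors differed among themselves. Fcer1g gave 1610 and 1657 CPM against 1710 and 1870 CPM in resting cells (-0.14), whereas Tyrobp gave 1232 and 1947 CPM against 1850 and 3080 CPM (-0.84) and Hcst 211 and 360 CPM against 285 and 634 CPM (-0.93). All 3 adaptor genes were lower in the proliferating cells of both suffixes.

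Of the chemokine genes of the gate, Ccl5 was lower in the dividing cells of both suffixes. This chemokine, which draws T cells and monocytes, gave 1382 and 412 CPM in proliferating cells, against 1596 and 2141 CPM in resting cells, and 1478 and 478 CPM against 2255 and 2431 CPM without foreign transcripts. The log2 ratios were -0.61 in suffix 1 and -2.35 in suffix 2 in the second comparison. Xcl1 gave 1219 and 2691 CPM against 1198 and 2342 CPM without foreign transcripts, ratios of 0.02 and 0.20. Ccl1, a ligand of CCR8, gave 12.2 and 5.52 CPM against 37.5 and 66.7 CPM in resting cells (-2.04). With all barcodes, Ifng gave 156 and 63.8 CPM against 101 and 106 CPM in resting cells, higher in suffix 1 and lower in suffix 2. Resting cells without foreign transcripts had 194 and 113 CPM of Ifng. The Ifng values of the proliferating cells above include barcodes with foreign transcripts, so no direction is read from that pair. The list of 15 cytokine and chemokine genes had 3 genes 2-fold lower, none 2-fold higher and a pooled median of -0.16. The median was -0.38 in suffix 1 and -0.50 in suffix 2, and -0.50 without foreign transcripts (-0.56 and -0.51 by suffix).

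Transcripts of the interferon response mostly lay lower in the dividing cells in the pooled ratio, with and without the foreign barcodes. Receptors for cytokines mostly did so once these barcodes were left out. All 18 measured cytokine receptor genes then lay below 0 in the pooled ratio, beside 5250 of all 9600 genes, with a median of -0.32, and 3 were 2-fold lower. Within suffixes, 12 of 16 measured genes of suffix 1 and 12 of 15 of suffix 2 lay below 0, with medians of -0.12 and -0.36. Over all genes, 4842 of 9064 and 3875 of 7872 lay below 0 by suffix. With all barcodes, 8 of 18 lay below 0 and the median was 0.03 (0.36 and -0.43 by suffix). Il7r, the IL-7 receptor alpha chain, gave 62.8 and 255 CPM against 93.2 and 508 CPM in resting cells, ratios of -0.57 and -0.99. With all barcodes its suffix 1 values were 57.7 CPM against 44.1 CPM in resting cells, the other direction. Of 18 interferon response genes without foreign barcodes, 10 were 2-fold lower and none lay above 0, with a pooled median of -1.20 (-1.48 to -0.60). Within suffixes the medians were nearer 0, at -0.43 and -0.37, and 11 of 12 and 14 of 18 genes lay below 0. With all barcodes, 16 of 19 lay below 0, with a pooled median of -0.51 (-0.07 and -0.15 by suffix). The pooled ratios without foreign barcodes join classes of unequal suffix make-up, 56 of 348 proliferating and 197 of 398 resting cells being of suffix 2. Isg15, a ubiquitin-like interferon-induced protein, gave 27.1 and 157 CPM in proliferating cells against 65.6 and 221 CPM in resting cells. Cxcl10, an interferon-induced chemokine, gave 13.6 and 9.78 CPM against 39.6 and 264 CPM in resting cells, the lowest ratio of the named genes at -3.50. Btg1 and Bcl2 were outside the naming rule and were chosen after their values were seen: the antiproliferative gene Btg1 was at 273 and 337 CPM against 377 and 624 CPM in resting cells, and the survival gene Bcl2 at 78.0 and 76.0 CPM against 102 and 158 CPM.

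The lowest ratios with all barcodes were partly those of the foreign genes. Hbb-bt, a beta globin gene, gave 43.5 and 3.15 CPM against 363 and 146 CPM in resting cells, and Cpa3, a mast cell protease, 13.1 and 18.9 CPM against 105 and 50.9 CPM. Plac8, Aldh2, Ramp1, Idh2, Ctla2a and Serpinb1a were also among the 10 lowest, and for Aldh2, Idh2 and Serpinb1a the ratio was above 0 within suffix 2. Ccr10, the receptor of CCL27 and CCL28, was lower in both suffixes, at 16.1 and 96.2 CPM against 34.0 and 207 CPM in resting cells.

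Against high-Gzmc proliferating cells, the low-Gzmc cells differed in a few effector genes beyond Gzmc. Of 9638 genes compared, 282 (2.93%) were 2-fold or more higher and 245 (2.54%) 2-fold or more lower. The high-Gzmc class is small, 22 cells of suffix 1 and 70 of suffix 2, while the low-Gzmc cells lie mostly in suffix 1, so a pooled ratio can differ from those within suffixes. Gzmc itself, used by the rule, was at 30.7 and 52.8 CPM in the low-Gzmc cells and at 881 and 4736 CPM in the high-Gzmc cells. No gene of the G2/M or S phase list passed 2-fold, and their pooled medians were 0.01 (-0.09 to 0.11) and 0.13 (0.05 to 0.17). The G2/M median was 0.02 within suffix 1 and -0.32 within suffix 2, and the S phase median 0.02 and 0.08. Both classes were chosen by the same limit on Mki67 and Top2a, so near levels of these lists describe the gate.

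Ccl1, Gzmb and Xcl1 were lower in the low-Gzmc cells in both suffixes. Ccl1 gave 12.2 and 5.52 CPM in low-Gzmc cells against 683 and 345 CPM in high-Gzmc cells, a log2 ratio of -5.24 (-5.59 to -4.90), or -5.80 and -5.97 by suffix. Gzmb gave 86.7 and 85.9 CPM against 412 and 262 CPM (-1.76, or -2.25 and -1.61 by suffix), and Xcl1 1063 and 2230 CPM against 2163 and 3395 CPM (-1.31, or -1.03 and -0.61). No value of the low-Gzmc cells reached either value of the high-Gzmc cells in Ccl1 or Gzmb, whereas the suffix 2 value of Xcl1 in low-Gzmc cells lay just above the suffix 1 value in high-Gzmc cells. Cyclin D1 (Ccnd1), named outside the rule after its values were seen, gave 4.75 and 16.6 CPM against 10.7 and 40.9 CPM. Cd69, an activation antigen that holds lymphocytes in tissue, gave 117 and 138 CPM against 198 and 249 CPM (-0.98).

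Other genes were higher in the low-Gzmc cells in both suffixes. Ckb, the brain-type creatine kinase, gave 246 and 58.3 CPM against 134 and 30.3 CPM in high-Gzmc cells, ratios of 0.88 and 0.94 within suffixes beside 2.04 pooled. Fabp5, a fatty acid binding protein, gave 169 and 163 CPM against 80.3 and 89.5 CPM (0.94, or 1.07 and 0.87 by suffix), and the transcription factor Maf 69.4 and 67.0 CPM against 45.5 and 33.8 CPM (0.93, or 0.61 and 0.99). Dusp1, a phosphatase of MAP kinases, gave 185 and 63.1 CPM against 85.7 and 41.6 CPM. Gzma had a pooled ratio of 1.37 but gave 3369 and 860 CPM against 3094 and 618 CPM in high-Gzmc cells, ratios of 0.12 and 0.48. Sp4, Fos, Cmtm7, Gimap4 and Adgre5 made up the rest of the 10 highest, with pooled CPM of 66.2 to 243 in low-Gzmc and 37.9 to 143 in high-Gzmc cells.

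Several pooled differences from the high-Gzmc cells did not hold within suffixes. The interferon response list had 9 of 18 genes 2-fold lower and a pooled median of -1.03, but medians of 0.24 and 0.08 within suffixes. Klra5, an inhibitory Ly49 receptor, had a pooled ratio of -1.42 and ratios of 0.96 and -0.87 by suffix, and Ms4a4b -1.56 pooled with 0.18 and -0.15. The fetal and NK receptor lists, in contrast, kept the sign of their pooled medians within suffixes. The fetal list, which holds Igf2bp1, Igf2bp3, Lin28b and Arid3a, had 6 of 8 genes 2-fold higher and a pooled median of 1.40. Its suffix medians were 0.85 over 5 measured genes and 0.68 over 4. Within it, Arid3a gave 33.8 and 16.6 CPM against 18.7 and 4.93 CPM in high-Gzmc cells, and Igf2bp1, an RNA-binding protein of fetal tissues, 28.2 and 5.52 CPM against 24.1 and 0.705 CPM. These high-Gzmc values rest on few UMIs, as 3 UMIs equal 8.03 and 2.11 CPM in that class by suffix. The 0.705 CPM lies below that floor. The NK receptor list had 2 of 21 genes 2-fold lower and a median of -0.24, with -0.24 and -0.26 within suffixes. Tbx21 gave 40.1 and 44.1 CPM against 42.8 and 38.8 CPM in high-Gzmc cells.

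**Figure D3:**
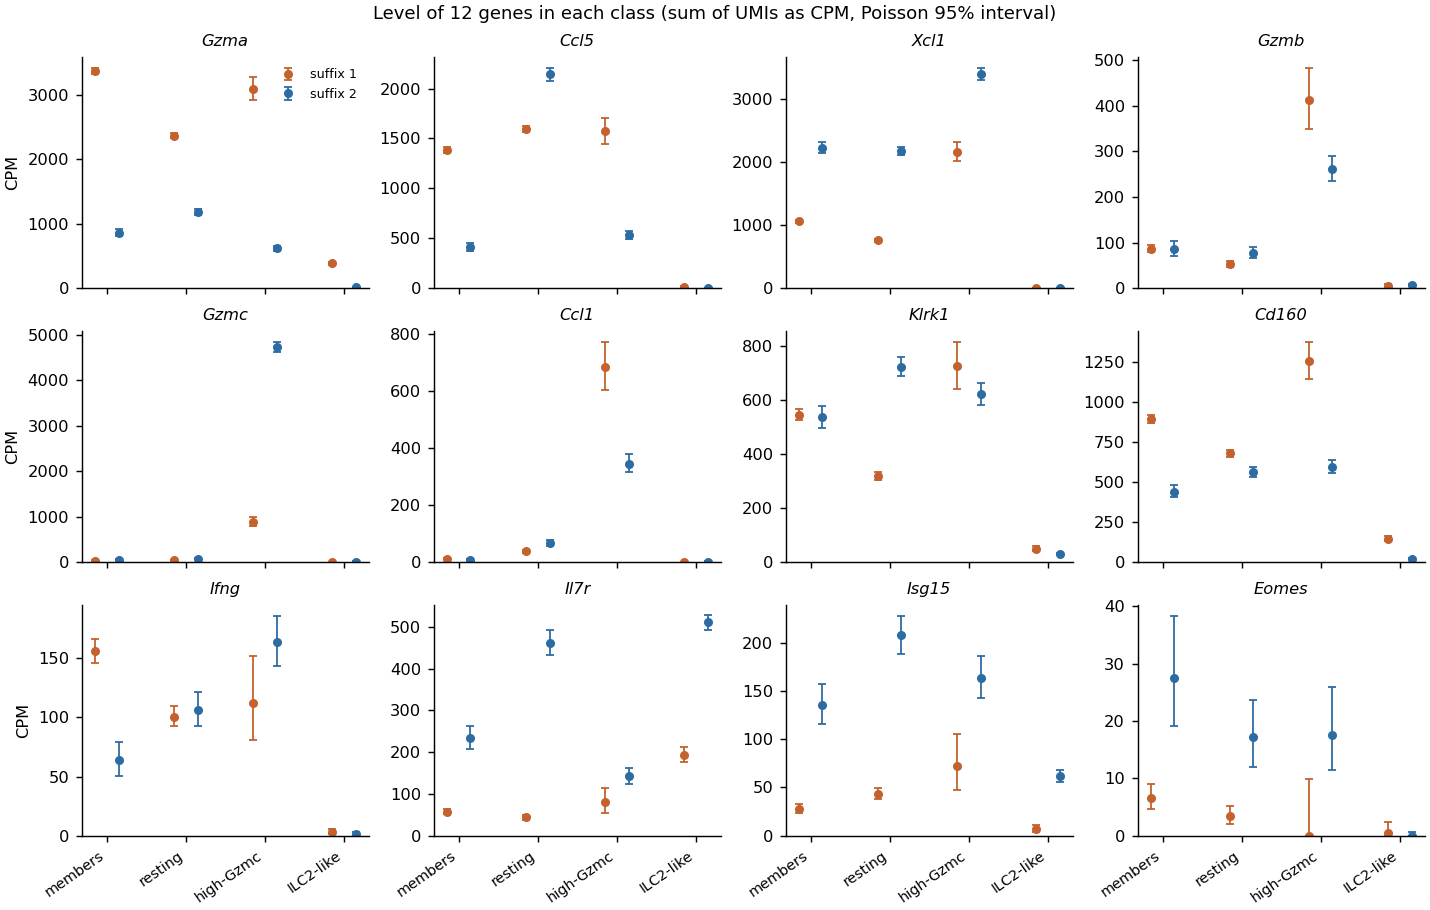
CPM of 12 genes (linear vertical axes from 0) in summed cells of each class, the low-Gzmc proliferating cells (members) leftmost, with suffix 1 and suffix 2 apart and exact 95% Poisson intervals. Ccl1 and Gzmb are highest in high-Gzmc proliferating cells in both suffixes, Ccl5 and Ifng of the low-Gzmc proliferating cells are higher in suffix 1, and Il7r and Isg15 are higher in suffix 2.

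Against proliferating ILC2-like cells, barcodes with at least 500 CPM over Icos, Il1rl1 and Rora, under 1000 CPM over the 4 NK genes and the same proliferation limit, the cells differed in lineage genes. Of 10357 genes, 620 (5.99%) were 2-fold or more higher and 818 (7.9%) 2-fold or more lower. The lowest ratio of the named genes was that of the globin gene Hbb-bs, at -7.18. It gave 0.849 and 0.788 CPM against 0 and 168 CPM in ILC2-like cells. A UMI of the 7 foreign genes was present in 30.2% of suffix 1 and 13.4% of suffix 2 ILC2-like cells, which were kept. The part of these transcripts in this comparison was not tested. The G2/M and S phase medians were 0.00 (-0.07 to 0.06) and 0.02 (-0.07 to 0.08), with no gene past 2-fold. Within suffixes the G2/M medians were 0.18 and -0.32, of opposite sign, and the S phase medians -0.13 and 0.03. Both classes passed the same limit on Mki67 and Top2a, which shapes this comparison. Genes of both gates are descriptions here, such as Xcl1 (1063 and 2230 CPM against 2.13 and 4.97 CPM in ILC2-like cells) and Il1rl1, the IL-33 receptor (0.339 and 13.4 CPM against 27.6 and 195 CPM).

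Of the 21 NK receptor genes, 18 were 2-fold or more higher and none lower, with a median of 5.64 (4.74 and 5.83 by suffix). Ncr1 gave 146 and 144 CPM against 2.98 and 0.802 CPM in ILC2-like cells, a log2 ratio of 6.71 (5.90 to 7.66). Klrc1, which encodes NKG2A, gave 253 and 188 CPM against 9.78 and 1.60 CPM (5.97). Fcer1g gave 1509 and 1434 CPM against 42.1 and 25.2 CPM (5.65). Klrb1c, the NK1.1 antigen, gave 64.5 and 73.3 CPM and had no UMI among the 8585077 of ILC2-like cells, so against a floor of 3 UMIs over both suffixes its log2 ratio was at least 7.56. Ifng gave 156 and 63.8 CPM against 2.98 and 1.76 CPM (6.06). Cytotoxic genes were 2-fold higher in 7 of 13 cases, at a median of 1.79 (1.5 and 1.36 by suffix).

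Factors and receptors of ILC2 were lower in the NK/ILC1-like cells. Hlf, a leucine zipper transcription factor, gave 1.53 and 6.31 CPM against 86.3 and 133 CPM in ILC2-like cells (-5.66), and Bcl11b, a factor of T cells and ILC2, 9.67 and 19.7 CPM against 150 and 163 CPM (-3.80). Gata3, which both lineages use and ILC2 need at high level, gave 53.6 and 47.3 CPM against 135 and 208 CPM (-1.84). Among 20 cytokine receptor genes, 3 were 2-fold higher (Il2rb 3.60, Il12rb2 4.83 and Il18rap 1.13 on the log2 scale) and 7 were 2-fold lower, with Il7r at -2.25, Il2ra at -3.15 and Kit at -2.35. The list's pooled median was -0.33, while its suffix medians were 0.08 and 0.15. Id2, a shared inhibitor of E proteins, was higher at 661 and 537 CPM against 202 and 347 CPM.

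Adhesion and glycolysis genes differed as well, whereas no gene of the other metabolic lists passed 2-fold. Itga1 (CD49a), a marker of tissue ILC1, gave 81.1 and 109 CPM against 1.28 and 1.60 CPM in ILC2-like cells (5.83), and Cxcr3, a receptor for CXCL9 and CXCL10, 164 and 104 CPM against 9.78 and 1.60 CPM (5.32). The thymus homing receptor Ccr9 was lower, at 10.4 and 37.8 CPM against 100 and 203 CPM (-3.52). Adhesion and egress genes were 2-fold higher in 5 and lower in 3 of 20 cases. In glycolysis, 16 of 17 genes lay below 0 and 6 were 2-fold lower, with a median of -0.62 (-0.74 and -0.62 by suffix), against a median of -0.02 over all genes. The medians were 0.0065 (-0.12 and -0.0081 by suffix) for 30 genes of oxidative phosphorylation, 0.03 (-0.34 and 0.03) for 20 of nucleotide synthesis and -0.12 (-0.32 and 0.04) for 12 of amino acid and iron transport. Aldoa, the glycolytic aldolase, gave 471 and 505 CPM against 1036 and 1150 CPM (-1.23), and Ldha, the lactate dehydrogenase A subunit, 902 and 919 CPM against 1512 and 1414 CPM (-0.67). Immediate early genes Fos (-1.5), Fosb (-1.92) and Jun (-1.43) were lower, while Dusp2 (1.94) and Egr3 (2.48) were higher. Of 16 survival and death genes, 5 were 2-fold higher, none 2-fold lower, and the median was 0.22 (0.56 and 0.21 by suffix).

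Against all other 4735 barcodes that passed the limits, 641 of 12491 genes (5.13%) were 2-fold or more higher in the low-Gzmc proliferating cells and 1827 (14.6%) 2-fold or more lower. The highest ratios outside the gate were those of the NKG2 family genes Klrc2 (142 and 136 CPM by suffix, against 25.0 and 13.3 CPM in the other barcodes) and Klrc1 (253 and 188 CPM against 48.3 and 23.4 CPM). The lowest included Myb and Sox4, factors of progenitor cells. Myb gave 14.1 and 37.8 CPM against 172 and 153 CPM in the other barcodes, and Sox4 29.5 and 93.0 CPM against 311 and 366 CPM.

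The cells of the 2 suffixes differed from each other while both were cycling. Of 9317 genes, 248 (2.66%) were 2-fold or more higher in suffix 1 and 494 (5.3%) 2-fold or more lower, and library and any biological difference between suffixes cannot be told apart. Gzma gave 3369 CPM (3322 to 3416) in suffix 1 and 860 CPM (810 to 912) in suffix 2, a log2 ratio of 1.97 (1.88 to 2.06). Ccl5 gave 1382 and 412 CPM (1.75), although in resting cells its ratio was -0.42, or -0.11 without foreign transcripts. Ckb (246 and 58.3 CPM), Rgs2 (305 and 96.9 CPM), Rgs1 (904 and 369 CPM) and Dusp1 (185 and 63.1 CPM) were higher in suffix 1, as log2 ratios 2.08, 1.65, 1.29 and 1.55. The Rgs genes encode regulators of G protein signalling, and their resting values depended on the foreign barcodes. The ratios of Rgs2 and Rgs1 in resting cells were -0.31 and -0.27 with all barcodes and 0.61 and 0.47 without foreign transcripts. Ifng had a ratio of 1.29 in the proliferating cells, against -0.08 in all resting cells and 0.78 in those without foreign transcripts.

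The interferon response list was lower in suffix 1 in 13 of 17 genes past 2-fold, with a median of -2.28, beside -2.25 in resting cells (-1.86 without foreign transcripts) and the -1.84 of ILC2-like cells. Isg15 gave 28.0 and 136 CPM, Ifi203 30.9 and 152 CPM and Ifit1 3.56 and 81.2 CPM in suffix 1 and suffix 2. The difference was therefore present in each of these 3 classes. Il7r was lower in suffix 1 at 57.7 against 235 CPM (-2.03), as was Ms4a4b at 100 against 636 CPM (-2.66). Xcl1 was lower at 1063 against 2230 CPM (-1.07), and Eomes, named after its values were seen, at 6.62 against 27.6 CPM. Tnni1 had a ratio of -2.12, against -0.57 in resting cells and -0.10 in those without foreign transcripts. Ctla2a had a ratio of -2.06, against -0.21 in resting cells but -2.98 without foreign transcripts (9.02 and 71.2 CPM).

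Mitotic genes were slightly higher in suffix 1. The G2/M list had 3 of 50 genes 2-fold higher, none lower and a median of 0.33 (0.27 to 0.47), beside -0.08 over all genes and -0.20 in ILC2-like cells. Ube2c gave 867 and 358 CPM in suffix 1 and suffix 2, the mitotic kinase gene Plk1 90.5 and 41.0 CPM, and Ccnb1 158 and 77.2 CPM. The S phase list had a median of 0.05 (-0.12 to 0.14) and no gene past 2-fold. Resting cells without foreign transcripts had suffix ratios of 1.34 for G2/M and 1.42 for S phase, larger than those of the dividing cells.

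**Figure D4:**
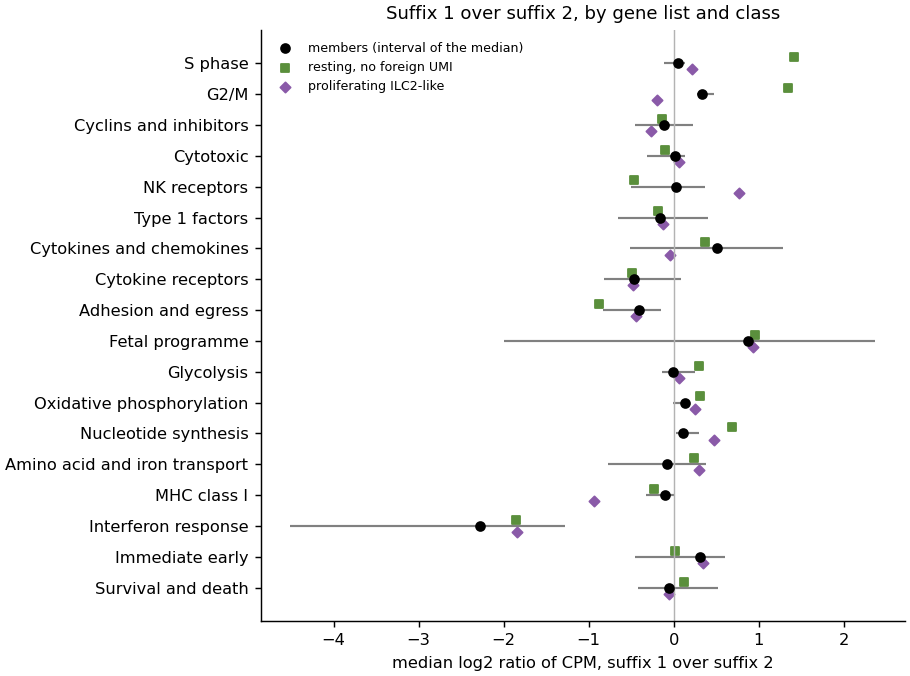
Median log2 ratio of suffix 1 over suffix 2 for each of 18 gene lists (rows), in low-Gzmc proliferating cells (members, with 95% order-statistic interval), resting cells without foreign transcripts and ILC2-like proliferating cells. The interferon response list lies far below 0 in all 3 classes (-2.28 in the low-Gzmc proliferating cells), while the G2/M list of the low-Gzmc proliferating cells lies at 0.33.

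Secreted effectors were among the genes that varied most between single cells. Among genes measured in cells thinned to 6699 UMIs, the variance over the mean (Fano factor) had a median of 1.19 over 953 genes in suffix 1 and 1.24 over 967 genes in suffix 2. Gzma had the highest value in suffix 1, 92.0, and had 35.04 in suffix 2. Ccl4, a chemokine of activated killer cells, had 33.9 in suffix 1, Ccl5 27.1 and 20.4, and Xcl1 19.3 and 25.4. Not all highly variable genes were secreted: the interferon-induced membrane protein gene Ifitm1 had 26.7 and 20.8, between these chemokines, and Ifng, a secreted cytokine, ranked only 30 of 953 in suffix 1 at 4.11. Xcl1 and Ccl5 belong to the gate, which set a lower limit in the low-Gzmc proliferating cells and an upper one in the ILC2-like cells, so their values here are a description. Gzma had at least 1 UMI in 66.4% of the thinned cells (74.1% unthinned), against 8.10% of ILC2-like cells (14.3% unthinned), with a median of 4 and a ninetieth percentile of 71.8 UMIs. Xcl1 was present in 73.0% of thinned cells (79.0% unthinned), against 2.14% of ILC2-like cells (3.99%). Ccl5 was present in 76.9% of suffix 1 cells and 37.1% of suffix 2 cells (84.6% and 45.7% unthinned), against 4.29% of ILC2-like cells (8.45%).

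Some receptor and adaptor genes were spread more evenly than these effectors. Fcer1g was present in 97.5% of thinned cells with a Fano factor of 2.47, Klrk1 in 87.6% with 2.18, and Cd160 in 94.2% with 2.04 (98.5%, 94.0% and 98.7% unthinned). In suffix 2, other such genes varied more, Klra5 with a Fano factor of 6.22 and Tyrobp with 5.06. In ILC2-like cells, the thinned shares were 5.48%, 16.9% and 15.48% (8.92%, 33.3% and 27.5% unthinned). Ncr1 was present in 45.9% (64.4% unthinned), against 1.19% of ILC2-like cells (1.41%), and Tbx21 in 23.3% (40.9%), against 0.238% (0.469%). Eomes was present in 5.07% of the cells (10.6% unthinned), 14 of 364 in suffix 1 and 8 of 70 in suffix 2, and in 0 of 420 ILC2-like cells.

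Within the cycle, the cells of each suffix were ranked by their G2/M CPM and split into low, middle and high groups, 128, 127 and 127 cells in suffix 1 and 24, 23 and 23 in suffix 2. The split fixes the order of mitotic genes, so their values are a description. Ube2c ran at 157, 631 and 1823 CPM in the low, middle and high groups of suffix 1. The S phase list summed to 5542, 4524 and 2723 CPM in suffix 1 and to 4005, 5243 and 3243 CPM in suffix 2. Pcna, the replication clamp, ran at 173, 144 and 66.5 CPM in suffix 1. Hist1h1b ran at 714, 1222 and 936 CPM in suffix 1 and at 174, 1521 and 1832 CPM in suffix 2.

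Effector genes were present in all 3 groups. In suffix 1, Gzma ran at 2414, 3608 and 4093 CPM, Ltb at 513, 685 and 923 CPM, Ifng at 124, 131 and 213 CPM, and Klrd1 at 649, 734 and 808 CPM, each in low to high order. Xcl1 ran at 1142, 1181 and 864 CPM and Nkg7 at 887, 913 and 929 CPM. In suffix 2, Gzma ran at 824, 339 and 1558 CPM and Klrd1 at 866, 556 and 680 CPM, so the order of suffix 1 did not recur for these genes. Ifng ran at 69.9, 56.5 and 64.9 CPM in suffix 2, also without that order. Ltb ran at 407 (351 to 468), 427 (369 to 493) and 593 CPM (515 to 679) in suffix 2. Its high group stood apart there, while its low and middle groups overlapped. Because genes of 1 cell share its total, a higher share of one list lowers the CPM of the others.

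**Figure D5:**
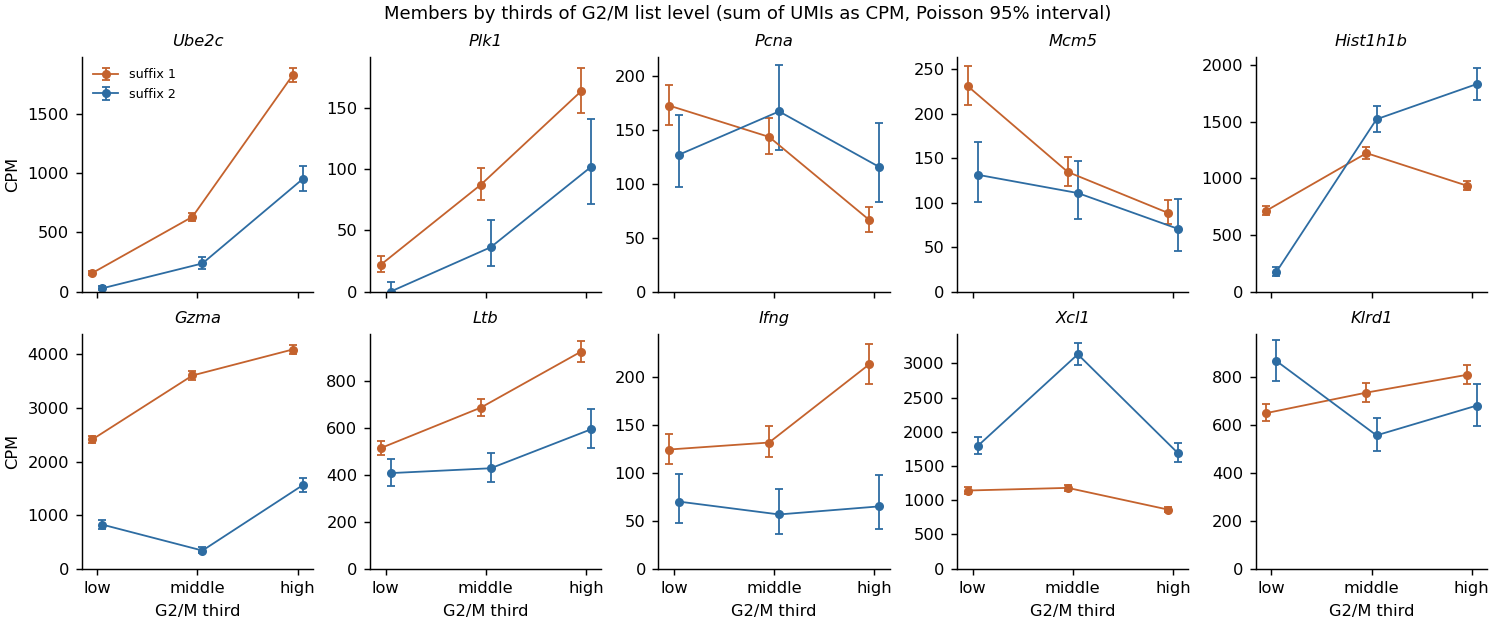
CPM of 10 genes (vertical axes) in the low-Gzmc proliferating cells split into low, middle and high groups by G2/M CPM (horizontal axis), with suffix 1 and suffix 2 as separate lines and exact 95% Poisson intervals. Ube2c and Plk1 are higher in each next group by construction, Pcna and Mcm5 are lowest in the high group, and Gzma of suffix 1 reaches 4093 CPM in the high group.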

How the data were processed

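Gene counts were deposited by the authors as 1 matrix of raw UMI counts, joining 2 libraries, with 0 columns tied to a sample. Per the labels' protocols the libraries were 10x Chromium 3′ v3, and the lysis described yields nuclei. The labels leave it unclear if whole cells or nuclei went onto the instrument. Cell Ranger 3.0.2, STAR and GRCm38 are named in the submitters' processing notes. The members and all 18 gene lists were chosen with earlier results of these data known. CPM, ratios and intervals were computed in Python 3.11.15 (numpy 2.4.6, scipy 1.17.1, pandas 2.3.3), and doublets called with Scrublet in scanpy 1.11.5. UMIs were summed over the cells of a class, with exact Poisson intervals at 95%, and log2 ratios have conditional exact intervals. A class at 0 was set to a floor of 3 UMIs over the class. With 1 pooled sample no test was run: "past 2-fold" describes genes with at least 20 UMIs in both classes together. Named genes were the 10 highest and 10 lowest ratios of each comparison at a mean of at least 50 CPM, the gate genes and the 4 most abundant genes of each list. Other genes named were chosen after their values were seen. The calculations were tested on simulated data. T cell receptor chain genes were not analysed here, and 1 further gene with its reporter is left out.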

Additional observations from a re-analysis of the deposited data

Results flagged for a closer look

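A signal appeared outside the analysed cells, in 34 barcodes (33 of suffix 1) that met every limit of the gate except the one on epithelial UMIs. They had 81.5 CPM of Krt18, a keratin of thymic epithelium, against 3.35 CPM in the low-Gzmc proliferating cells. Krt18 is a gene of that limit, so this difference describes the limit. The 34 barcodes also had 750.2 CPM of Hbb-bt, a beta globin gene not used by that limit, against 36.3 CPM in the low-Gzmc proliferating cells. Gzma was at 1486 CPM in these barcodes, against 2924 CPM in the low-Gzmc proliferating cells. The origin of these transcripts was not tested.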

How the results depend on the processing

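Over 19 main results and 20 alternatives, 329 values stayed within the interval of the main value, or near it for counts. Another 45 moved and 3 reversed. Over 286 results of named genes, 4293 values stayed, 1406 moved and 12 reversed. Reversed means a change of sign where the interval of a main median excluded 0 or a gene was past 2-fold. Other changes of sign are counted as stayed or moved. The NK receptor median against resting cells, 0.34 in the main result and -0.35 in suffix 2, counts as moved. The cause was not tested except where an alternative changes how many genes or cells are counted. No paired analysis was possible because the matrix ties no barcode to a replicate. In suffix 1 alone, 1005 genes were 2-fold higher than in resting cells and 636 than in high-Gzmc cells, the NK receptor and interferon medians against resting cells were 0.64 and -0.068, and the S phase and G2/M medians against ILC2-like cells were -0.13 and 0.18. Against high-Gzmc cells the interferon median was 0.24, Ifi203 0.94, Klra5 0.96 and Ms4a4b 0.18, all of opposite sign to the pooled values. In suffix 2 alone, with 70 cells, the S phase, G2/M, NK receptor and cytotoxic medians against resting cells were 1.67, 3.83, -0.35 and -0.36, and Aldh2 (0.11), Idh2 (0.55) and Serpinb1a (0.34) changed sign. Against high-Gzmc cells 170 genes were higher and 133 lower, the interferon median was 0.075 and Ifi203 0.18, and the G2/M median against ILC2-like cells was -0.32. Without foreign transcripts, the G2/M, NK receptor, cytotoxic and interferon medians against resting cells were 3.37, -0.22, -0.19 and -1.20, and Idh2 was 0.28. In suffix 1 without them, with 292 cells, 203 genes were 2-fold lower than in resting cells, the S phase, G2/M and NK receptor medians were 0.50, 2.81 and -0.087 and Ctla2a 0.51. There, 711 genes were higher than in high-Gzmc cells, with the interferon median at 0.000859, Ifi203 0.82, Klra5 1.17 and Ms4a4b 0.036, and the S phase and G2/M medians against ILC2-like cells were -0.14 and 0.26. At least 100 UMIs per gene left 388 higher and 127 lower than in resting cells, 51 and 79 for high-Gzmc cells and 339 and 407 for ILC2-like cells. At least 1 UMI gave 926 and 916, 451 and 720, and 1062 and 1261. An NK limit of 500 CPM gave 555 genes higher than in high-Gzmc cells, an NK receptor median of -0.61 there, and S phase and G2/M medians against ILC2-like cells of 0.10 and -0.075. At least 6 UMIs of Mki67 and Top2a moved the interferon median against high-Gzmc cells to -0.69, and no Cd3d UMI to -0.70. Thinning moved the G2/M median against ILC2-like cells to 0.058. Class depth limits the precision, most of all for the 22 high-Gzmc cells of suffix 1.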
